A study of Mus musculus with 6 samples.

Results

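Genes of the angiotensin and natriuretic peptide pathways were followed in mouse adrenal medulla 8 weeks after transverse aortic constriction (TAC, a surgical narrowing of the aorta that makes the heart pump against pressure) and 8 weeks after a sham operation. The 9 genes were Agt, Ren1, Ace, Agtr1a, Agtr1b, Agtr2, Npr1, Npr2 and Npr3, and every probe set (a group of short probes read together) whose only annotated symbol was 1 of them was taken. This gave 11 probe sets for 8 of the 9 genes, out of 45037 probe sets on the array without its controls. Ren1 had no such probe set and is not analysed here. There were 3 TAC and 3 sham arrays, each with RNA from both medullae of 1 male C57/Bl6 mouse, so the replicates were separate animals. The labels give no age for the animals, and the medulla was cut out of frozen 12 µm sections by hand-guided microdissection, which can carry neighbouring cortex along.

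Angiotensinogen, the product of Agt, is cut by renin and then by the converting enzyme Ace to angiotensin II. That peptide acts on the type 1 receptors, which rodents encode in the paired genes Agtr1a and Agtr1b, and on the type 2 receptor Agtr2. In the adrenal gland, angiotensin II drives aldosterone release from the outer cortex through type 1 receptors and can stimulate catecholamine release from the medulla. Natriuretic peptides come largely from the loaded heart and vessels and raise cyclic GMP through the receptor cyclases Npr1, for the atrial and brain peptides, and Npr2, for the C-type peptide, while Npr3 mainly clears the peptides.

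All levels below are log2 intensities of the deposited, background-corrected table, and each difference is the TAC mean minus the sham mean of those log2 levels. A probe set was tested where it reached log2 4 on at least 3 of the 6 arrays, which 18188 did. The median of the tested probe sets lay between 6.50 and 7.01 on the TAC arrays and between 6.31 and 6.91 on the sham arrays. Gapdh is read by control probe sets at both ends of its transcript. The log2 signal at the 3′ end minus that at the 5′ end can grow as RNA is shortened. It was 4.71, 3.67 and 3.98 on TAC 1 to 3 and 5.15, 3.08 and 2.88 on sham 1 to 3. The RNA was amplified from its 3′ end, and the part of amplification in this difference was not tested. Markers of chromaffin cells, the hormone-secreting cells of the medulla, were measured for 11 of 12 listed genes, and all 11 passed the filter, with Th, Dbh, Pnmt and Chga at 12.20 or more on every array. The summed signal of 13 measured adrenal cortex markers, on the log2 scale, lay between 11.41 and 13.22 on the TAC arrays and between 10.78 and 14.05 on the sham arrays.

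The angiotensin receptor genes Agtr1a and Agtr2, the C-type peptide receptor gene Npr2 and 1 of 2 Ace probe sets were measured above the filter, whereas Agtr1b, the precursor gene and the other natriuretic peptide receptor genes were not. The tested genes were Agtr1a, Agtr2, Ace and Npr2, each through 1 probe set that stayed above log2 4 on all 6 arrays. The other 7 probe sets stayed under log2 4 on all 6 arrays, which is the case for 63.6% of the probe sets of these genes and for 53.3% of all probe sets without the controls. After TAC, 0 of the 4 tested probe sets had an adjusted p under 0.05 (limma, Benjamini-Hochberg over all tested probe sets), where 0% of the 18188 did. At an unadjusted p under 0.05 there were 0 of 4, against 6.94% of all tested probe sets. The 3 TAC arrays lay wholly above or below the 3 sham arrays for 0 of the 4, against 13% of all tested probe sets.

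**Figure D1:**
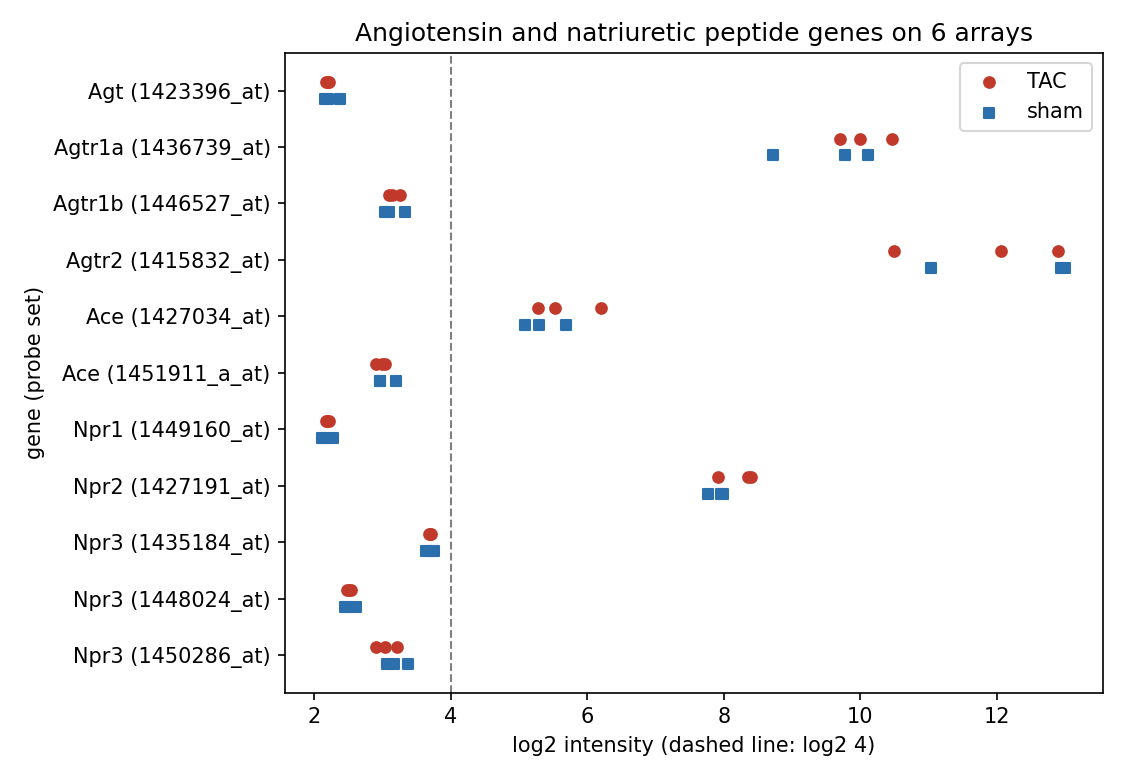
Log2 intensity (x axis) of the 11 probe sets (rows) on the 3 TAC arrays (circles) and the 3 sham arrays (squares), with a dashed line at log2 4. The probe sets of Agtr1a, Agtr2 and Npr2 and 1 of 2 for Ace lie right of the line on every array and the other 7 left of it. Rows are not comparable in level, since probes differ in brightness.

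The type 2 receptor gene Agtr2 (probe set 1415832_at) had the widest spread of the 4 tested genes in both groups. It measured 10.49, 12.89 and 12.06 on TAC 1 to 3, against 11.04, 13.00 and 12.94 on sham 1 to 3. The replicate 1 array was the lowest of its group after TAC and after sham, and the groups overlapped over nearly their whole range. The mean was 11.81 ± 1.22 after TAC and 12.33 ± 1.12 after sham (SD, n = 3 each). The difference was -0.52 ± 0.80 (SE, 95% interval -2.45 to 1.42, limma adjusted p = 0.982), so a fold from 0.182 to 2.68 lies within the interval. The standard error was 0.39 for the median tested probe set. The number of receptor-bearing cells and the amount of RNA in each such cell cannot be told apart in dissected tissue.

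The sign of the Agtr2 difference depended on TAC 1, without which it was 0.15, while without sham 1 it was -1.16. In each group the replicate 1 array also had the largest Gapdh difference between transcript ends. With the Gapdh difference as a covariate the Agtr2 difference was -0.059 ± 0.38 (SE, limma adjusted p = 0.952), and without TAC 1 and sham 1 together it was -0.50 ± 0.35 (SE, limma adjusted p = 0.562). The mean of 8 fibroblast markers was 6.62, 7.75 and 7.28 on TAC 1 to 3 and 7.32, 8.597 and 8.591 on sham 1 to 3. Its exact 2-sided permutation p of 0.2 (n = 3 each) was the smallest of the marker lists. The 8 went different ways. Pdgfrb lay wholly higher after TAC (9.77 to 10.13, against 9.18 to 9.22 after sham), Col3a1, Dpt and Col1a2 lay wholly lower, and the others overlapped. The fibroblast mean was lowest on the replicate 1 array of each group, as were the means of the chromaffin, endothelial, smooth muscle, sustentacular and macrophage markers and the median of the tested probe sets. The part of these in the Agtr2 values was not tested.

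The type 1a receptor gene Agtr1a (1436739_at) measured 9.70, 10.46 and 10.002 on TAC 1 to 3, against 8.72, 9.78 and 10.11 on sham 1 to 3. Sham 1 was the lowest array, and the other sham arrays lay within the TAC range. The mean was 10.05 ± 0.38 after TAC and 9.54 ± 0.73 after sham (SD, n = 3 each), a fold of 1.43 with a 95% interval from 0.69 to 2.97. The difference of 0.52 ± 0.43 (SE) had a limma adjusted p of 0.946. It was 0.11 without sham 1 and 0.81 without sham 3. With the Gapdh difference as a covariate it was 0.76 ± 0.19 (SE, limma adjusted p = 0.113), which was among 3843 probe sets at an unadjusted p under 0.05 in that fit.

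Type 1 receptors are abundant in adrenal cortex, so the cortex markers were set beside Agtr1a. The mean of the 9 cortex markers that passed the filter was 9.02, 7.99 and 6.59 on TAC 1 to 3 and 7.46, 6.64 and 10.16 on sham 1 to 3, and the group difference had an exact 2-sided permutation p of 0.9 (n = 3 each). Agtr1a was at 10.002 and 9.78 on the arrays with the least cortex signal, TAC 3 and sham 2, and at 10.11 on sham 3, with the most. The part of cortex in the Agtr1a values was not tested. Without TAC 1 and sham 3 together, the arrays with the highest cortex mean in their groups, the Agtr1a difference was 0.98 ± 0.52 (SE, limma adjusted p = 0.974).

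**Figure D2:**
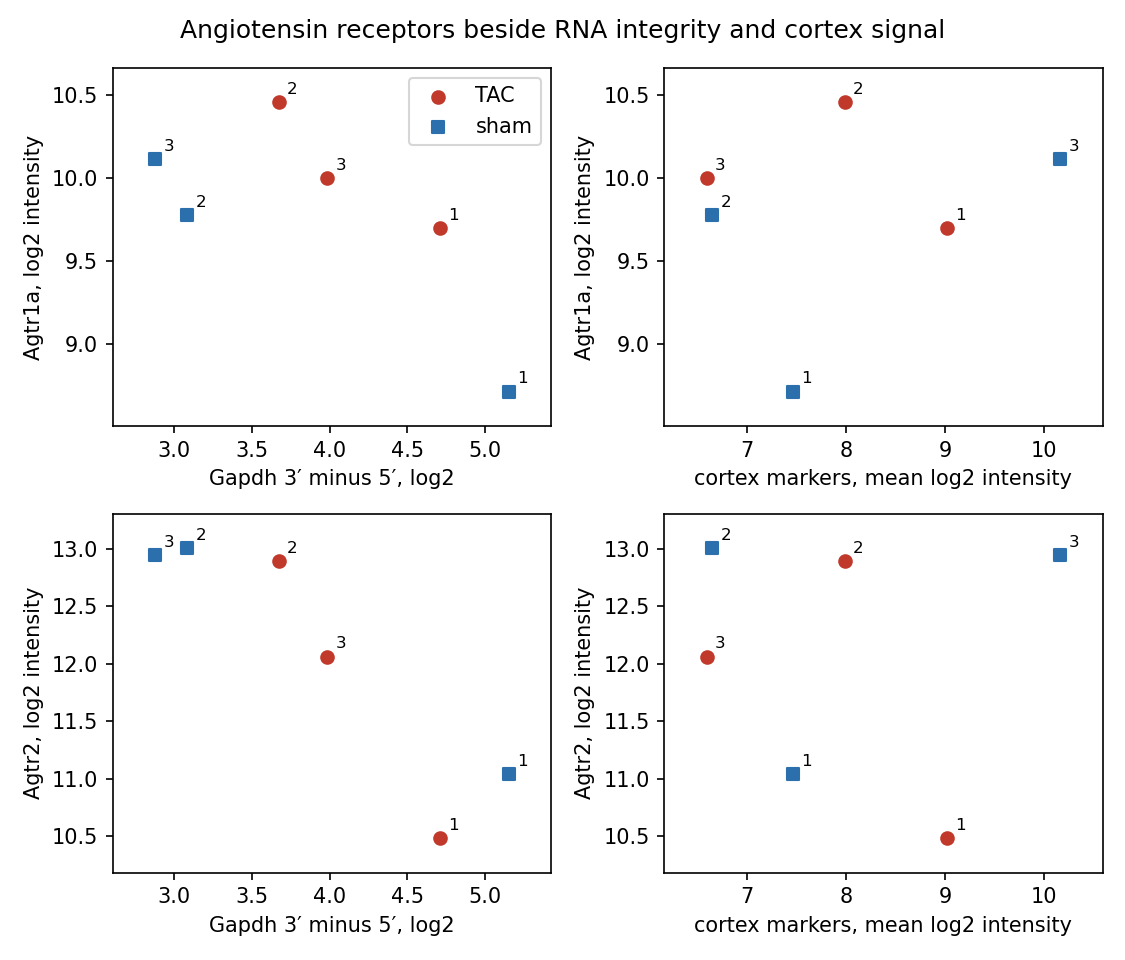
Log2 intensity of Agtr1a (top row) and Agtr2 (bottom row) on each array against the Gapdh 3′ minus 5′ log2 difference (left) and the mean log2 intensity of 9 cortex markers (right), with TAC as circles, sham as squares and the replicate number beside each point. The replicate 1 arrays, at Gapdh differences of 4.71 and 5.15, hold the lowest Agtr2 value of their groups. Agtr1a lies at 10.002 and 9.78 on TAC 3 and sham 2, which have the least cortex signal in their groups.

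The second type 1 receptor gene, Agtr1b (1446527_at), stayed under log2 4 on all arrays, between 3.10 and 3.25 after TAC and between 3.03 and 3.32 after sham. In the rodent adrenal this gene is best known from the aldosterone-making zona glomerulosa. Cyp11b2, the aldosterone synthase gene of that zone, also stayed under log2 4, between 2.03 and 2.07 after TAC and between 2.04 and 2.11 after sham. Of the other 12 measured cortex markers, Nr5a1 and Nr0b1 also stayed under log2 4 on all arrays, and Mc2r was above it on sham 3 only. The other 9 passed the filter, among them Star, which encodes the protein that delivers cholesterol for steroid synthesis, at 9.23, 7.90 and 6.10 after TAC and 8.88, 6.56 and 10.81 after sham.

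Of the genes that make angiotensin II, 1 probe set was measurable. Agt (1423396_at), the precursor gene, lay between 2.17 and 2.22 after TAC and between 2.15 and 2.38 after sham, under log2 4 throughout. Ace was read at 5.27, 6.20 and 5.52 on TAC 1 to 3, against 5.29, 5.09 and 5.69 on sham 1 to 3, by 1427034_at. TAC 2 was the highest array and the other TAC arrays lay within the sham range. The Ace difference was 0.31 ± 0.33 (SE, 95% interval -0.50 to 1.12, limma adjusted p = 0.979), and it was 0.044 without TAC 2. The other Ace probe set, 1451911_a_at, stayed between 2.91 and 3.03 after TAC and between 2.96 and 3.20 after sham, so the 2 readings of this gene fell on different sides of log2 4.

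Ace is carried by endothelium, so endothelial markers were set beside it. Their summed signal over 10 genes lay between 9.72 and 10.37 after TAC and between 9.73 and 10.02 after sham on the log2 scale, and the mean of the 6 that passed the filter had an exact 2-sided permutation p of 0.7 (n = 3 each). Pecam1, Kdr, Cdh5 and Tie1, 4 defining endothelial genes, stayed under log2 4 on all arrays. The mean of those 6 was 6.19, 7.12 and 6.72 on TAC 1 to 3 and 6.37, 6.99 and 7.09 on sham 1 to 3. TAC 2 was the highest array for both this mean and Ace, whereas sham 2, with a mean of 6.99, was the lowest for Ace, and the part of endothelium in the Ace values was not tested.

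Npr2, the cyclase receptor for the C-type peptide, had the narrowest spread of the 4 tested genes in both groups. It measured 7.91, 8.40 and 8.35 on TAC 1 to 3, against 7.76, 7.98 and 7.96 on sham 1 to 3 (1427191_at). Both TAC 2 and TAC 3 lay above all sham arrays, and TAC 1 lay within the sham range. The mean was 8.22 ± 0.27 after TAC and 7.90 ± 0.12 after sham (SD, n = 3 each), a fold of 1.25 with a 95% interval from 0.828 to 1.88. The difference of 0.32 ± 0.24 (SE) had a limma adjusted p of 0.935, and it stayed above 0 under all 17 alternative settings, from 0.21 to 0.50.

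**Figure D3:**
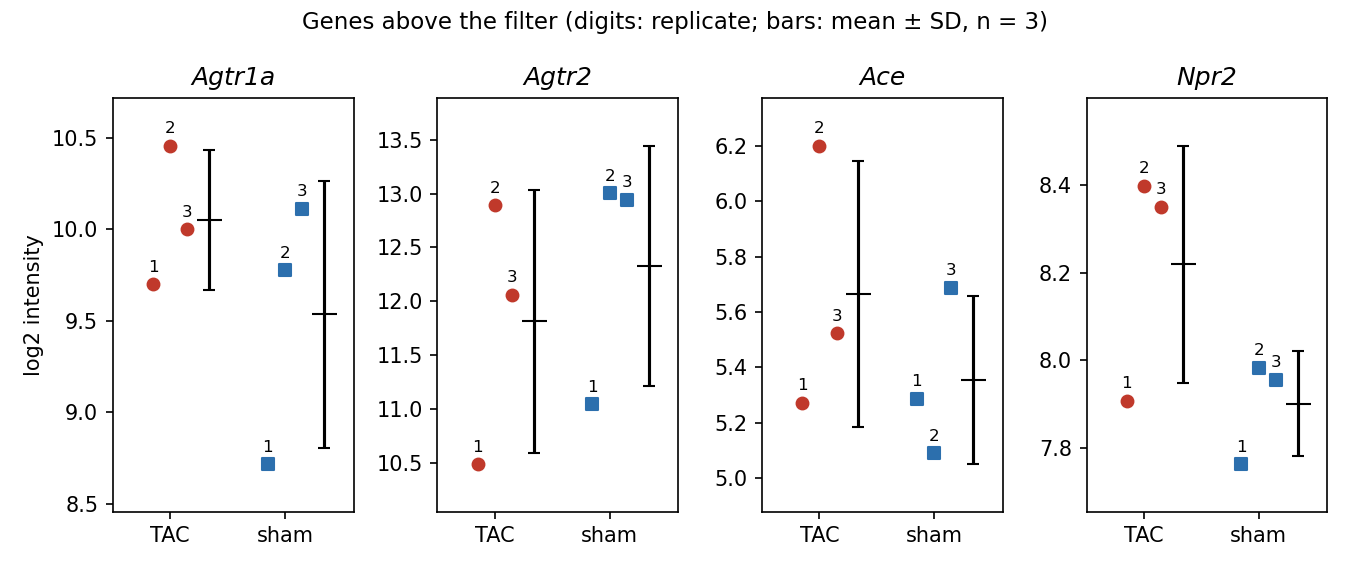
Log2 intensity (y axis, scaled to each panel) of Agtr1a, Agtr2, Ace and Npr2 on TAC arrays (circles, left) and sham arrays (squares, right), with the replicate number at each point and bars for the mean ± SD of 3 arrays. The groups overlap in every panel, and the replicate 1 arrays are the lowest of both groups for Agtr1a, Agtr2 and Npr2.

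The other natriuretic peptide receptors stayed at low signal. Npr1, the receptor for the atrial and brain peptides, lay between 2.17 and 2.22 after TAC and between 2.12 and 2.27 after sham (1449160_at). The clearance receptor gene Npr3 was read by 3 probe sets, none of which reached log2 4 on any of the 6 arrays. Its probe set 1435184_at came nearest to that line, at 3.69, 3.68 and 3.71 on TAC 1 to 3 and 3.76, 3.72 and 3.64 on sham 1 to 3, while 1448024_at and 1450286_at lay between 2.48 and 3.21 after TAC and between 2.45 and 3.37 after sham. Over the 7 probe sets under log2 4, TAC minus sham differences ran from -0.14 to 0.012, and sham 1 was the highest array in 7 of 7. Sham 1 was also the highest array for 80.7% of all 24007 probe sets that stayed under log2 4, so that order is shared by low signals in general.

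The natriuretic peptide genes themselves were under log2 4 on all arrays. Nppa, which encodes the atrial peptide, lay between 3.23 and 3.31 after TAC and between 2.59 and 3.33 after sham. Nppb, for the brain peptide, lay between 2.32 and 2.35 after TAC and between 2.19 and 2.38 after sham. Nppc, for the C-type peptide that Npr2 binds, lay between 1.88 and 1.92 after TAC and between 1.88 and 1.95 after sham.

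Downstream of the receptors, cyclic GMP genes held the largest difference among the listed pathway genes, taking 1 probe set a gene. Pde2a, a phosphodiesterase that cyclic GMP itself activates, measured 9.46, 9.47 and 9.38 on TAC 1 to 3, against 7.62, 8.02 and 8.81 on sham 1 to 3 (1447707_s_at). All TAC arrays lay above all sham arrays, and the TAC values were close together. The fold was 2.44 (difference 1.29 ± 0.35 SE, 95% interval 0.45 to 2.13), with an unadjusted limma p of 0.00939 and an adjusted p of 0.508, so the gene did not pass the threshold. The difference was from 1.02 to 1.61 when single arrays were left out, and 1.42 ± 0.26 (SE, limma adjusted p = 0.0784) with the Gapdh difference as a covariate. The suffix of this probe set marks probes that can match several transcripts, and the other 2 Pde2a probe sets stayed under log2 4, between 1.15 and 2.96 after TAC and between 1.12 and 3.46 after sham.

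Of 11 measured genes in the natriuretic peptide and cyclic GMP list, 0 passed the threshold, 1 had an unadjusted p under 0.05 (9.09%, against 6.94% of all tested probe sets), and 7 read higher and 4 lower. The median difference was 0.24, against 0.047 over all tested probe sets. Without sham 1 these medians were -0.16 and -0.057. Furin, a protease that processes natriuretic peptide precursors, differed by 0.66 ± 0.37 (SE, limma adjusted p = 0.854), and by 0.34 without TAC 1. Pde10a, another cyclic nucleotide phosphodiesterase, differed by 1.23 ± 0.92, with sham 1 at 6.53 and the other 5 arrays between 8.93 and 10.44, and by 0.25 without sham 1. Its other probe sets were below the filter, with differences from -0.21 to -0.00089. The efflux pump gene Abcc4 differed by 0.37 ± 0.35, and by 0.13 without TAC 2 and 0.61 without TAC 1. Of the genes that read lower, Gucy1b1 and Prkg1, named after their values were seen, differed by -0.66 ± 0.76 and -0.34 ± 0.51. These counts take 1 probe set a gene. Prkg2, a cyclic GMP-dependent kinase gene chosen after its values were seen, was read at 0.23, 0.37 and -1.52 by 3 probe sets, so its direction depended on the probe set. The reading of -1.52 had an unadjusted limma p of 0.0312 and an adjusted p of 0.66. Ide, another gene of the list chosen in the same way, was counted as higher at 0.33. Its other 2 tested probe sets read -0.61 and -0.67. Averaged over all tested probe sets of a gene, Ide read -0.32 and Prkg2 -0.30. Of the 9 genes below the filter, Nppa, Nppb and Nppc are described above, and the others were Corin, Pde1a, Pde1c, Pde3a, Pde9a and Gucy2c.

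Signalling genes of the type 1 receptor differed by smaller amounts, taking 1 probe set a gene. Of 12 measured genes, 0 passed the threshold, and 8 read higher and 4 lower. At an unadjusted p under 0.05 there were 0, against 6.94% of all tested probe sets. The median difference was 0.14, against 0.047 over all tested probe sets. Without TAC 2 these medians were 0.011 and -0.042. Gna11, a G protein subunit that couples type 1 receptors to phospholipase C, measured 8.71, 8.95 and 8.71 on TAC 1 to 3 and 8.59, 8.44 and 8.58 on sham 1 to 3. Its groups did not overlap, but the difference of 0.25 ± 0.21 (SE) had a limma adjusted p of 0.947, and its other probe set read -0.078. The protein kinase C genes Prkce and Prkca differed by 0.45 ± 0.33 and 0.24 ± 0.24, and Itpr2, a calcium release channel of internal stores, by 0.26 ± 0.26. With single arrays left out these ran from 0.20 to 0.58 for Prkce (lowest without TAC 2), from 0.11 to 0.40 for Prkca (without sham 2) and from 0.10 to 0.40 for Itpr2 (without TAC 3). The other tested probe set of Prkce read 0.58 and that of Itpr2 0.038. Prkcb, another protein kinase C gene, was counted as higher at 0.18, but its other tested probe set read -0.63.

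Among other enzymes and receptors of the renin-angiotensin system, 8 genes passed the filter and 7 did not. Mas1, a receptor for a shortened angiotensin peptide, was below it, between 3.69 and 3.96 after TAC and between 3.66 and 4.71 after sham. Of the 8 measured, 0 passed the threshold, and 6 read higher and 2 lower. At an unadjusted p under 0.05 there were 0, against 6.94% of all tested probe sets. The median difference was 0.089, against 0.047 over all tested probe sets. Without TAC 2 these medians were -0.058 and -0.042. Nln, a peptidase that can cleave angiotensin peptides, measured 6.45, 6.44 and 6.52 on TAC 1 to 3 and 6.25, 6.32 and 5.77 on sham 1 to 3, with no overlap (difference 0.36 ± 0.24 SE, limma adjusted p = 0.92, and 0.18 without sham 3). Atp6ap2, the prorenin receptor gene, differed by 0.087 ± 0.27 and read -0.20 and -0.016 on its other probe sets. Agtrap, whose product binds and takes up the type 1 receptor, differed by 0.19 ± 0.26, and the lysosomal protease genes Ctsb and Ctsd by 0.29 ± 0.42 and -0.20 ± 0.38. The other 3 tested Ctsb probe sets read 0.18 ± 0.38, 0.41 ± 0.60 and -0.45 ± 1.89 (SE). Its sign depended on the probe set, but each standard error was larger than the difference. Mtus1, another gene of this list, was counted as higher at 0.091 ± 0.59, but its other tested probe set read -0.84 ± 1.03 (SE).

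Over the 3 lists together, 31 genes were measured, 0 passed the threshold and 3 had groups without overlap, which were Pde2a, Gna11 and Nln. These 3 are 9.68% of the 31, against 13% of all tested probe sets. All 3 lay higher after TAC, and 9.01% of all tested probe sets lay wholly higher.

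**Figure D4:**
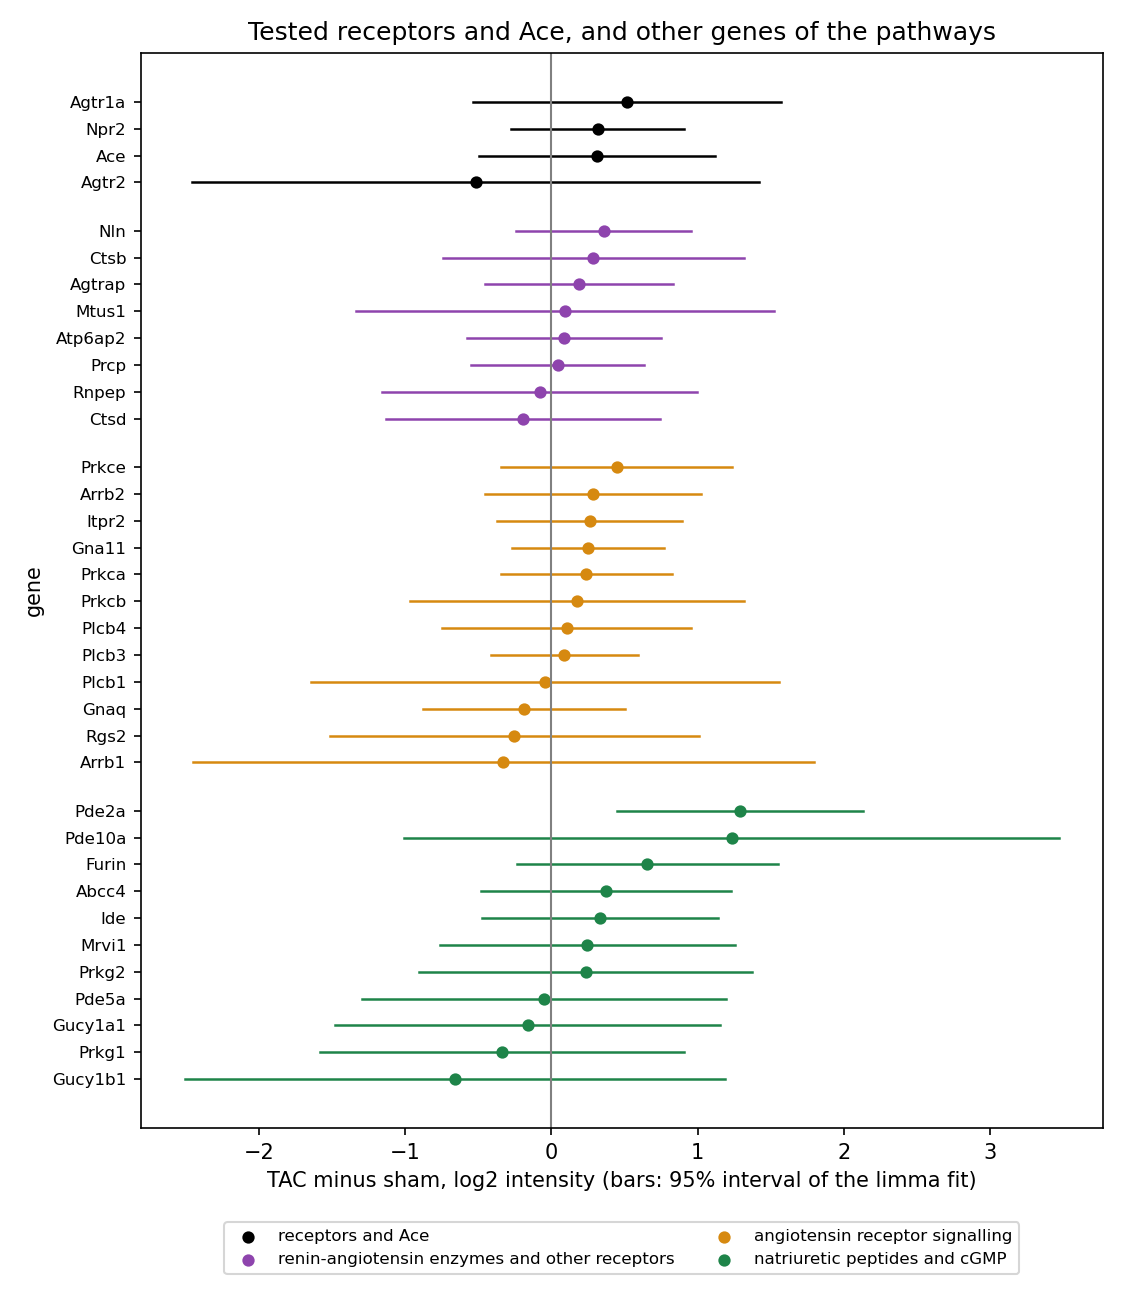
TAC minus sham difference in log2 intensity (x axis) with 95% intervals of the limma fit for the 4 tested receptor and Ace probe sets (top, black) and 31 other genes of the pathways in 3 lists (rows, coloured by list). The interval of Pde2a, from 0.45 to 2.13, lies above 0, and those of Agtr1a, Agtr2, Ace and Npr2 include it.

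The patterns of Agtr2 and Agtr1a over the 6 arrays were shared with many other probe sets, that of Npr2 with fewer and that of Ace with few. The tested probe set most like Agtr2 was one of Ahcyl1 (Pearson r = 0.999 over 6 arrays), and 18.6% of tested probe sets of other named genes had an r over 0.9 with it. For Agtr1a it was Dtwd1 (r = 0.998, with 9.24% over 0.9), for Npr2 Mtif2 (r = 0.998, 3.95%) and for Ace Atg7 (r = 0.989, 0.579%). These values describe arrays that also differ in the Gapdh signal between transcript ends and in overall level, and genes are not independent of each other.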

How the data were processed

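Per the labels' protocols, RNA for the 6 Affymetrix arrays was amplified in 2 cycles, starting at its 3′ end. The deposited table holds 1 linear intensity per probe set and array. The submitters' processing notes credit it to GCRMA, without a version or options. Values were log2-transformed and used without further scaling, so differences in overall level between the arrays stay in the standard errors. With median centring of the arrays the standard error was 0.29 for Agtr1a and 0.60 for Agtr2, against 0.43 and 0.80 without it. For Ace it was 0.30 against 0.33, and for Npr2 0.25 against 0.24. The 64 control probe sets were left out. GEO's platform annotation gave 1 symbol to 34945 of the others, several to 932 and none to 9160. Probe sets reaching log2 4 on 3 or more arrays were fitted with limma 3.58.1 in R 4.3.3 (lmFit, eBayes, 2-sided, 4 residual degrees of freedom, no covariate), with Benjamini-Hochberg adjustment over all of them and a threshold of 0.05. The fit was tested on simulated data with independent noise for each probe set and array. Those data hold no differences shared across an array, so they cannot show how the fit behaves with such differences. In the 3 pathway lists the probe set with the highest mean stood for a gene. Named were all probe sets of the 9 genes, the 4 genes with the smallest p and those without overlap in each list, and Nppa, Nppb, Nppc, Mas1, Cyp11b2, Atp6ap2 and 1 further gene that is not reported here. For each tested probe set of the 9 genes, the tested probe set of another gene with the highest Pearson r was also named. The genes and lists were chosen with earlier results of these data known. Single array values were compared by exact permutation tests, whose smallest p is 0.1 for groups of 3. The number of arrays limits the precision. No coordinates are given because the table names no genome build.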

Additional observations from a re-analysis of the deposited data

How the results depend on the processing

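Under the 17 alternative settings, 0 probe sets of the 9 genes passed the threshold in each, with limma adjusted p-values from 0.113 to 0.99999 for Agtr1a, from 0.0557 to 0.99999 for Agtr2, from 0.512 to 0.99999 for Ace and from 0.0647 to 0.99999 for Npr2. Agtr1a (0.09 to 0.98), Npr2 (0.21 to 0.50) and, in the 16 settings whose filter kept it, Ace (0.04 to 0.67) stayed higher after TAC. With array weights 6698 probe sets and 8 pathway genes passed, against 0 and 0 in the reported fit and in the other 16 settings. The 8 were Gucy1b1 (-1.48), Itpr2 (0.63), Prkg1 (-0.80), Pde2a (0.98), Plcb1 (-0.92), Rnpep (-0.82), Arrb1 (-1.14) and Furin (0.58). These weights were 0.143 for sham 1 and 6.11 for TAC 3, so the TAC mean of that fit rested mostly on 1 array.

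The sign turned without TAC 1 and sham 3 together for Agtr2 (0.45) and Ctsd (0.15), with array weights for Agtrap (-0.045) and Pde10a (-0.31), and for Atp6ap2 after quantile normalization (-0.042) or cyclic loess (-0.013). With single arrays left out, differences ran from -1.16 to 0.15 for Agtr2, -0.0037 to 0.29 for Agtrap, -0.0025 to 0.62 for Ctsb, -0.48 to 0.082 for Ctsd and -0.062 to 0.25 for Atp6ap2 (-0.014 without sham 1), and no probe set passed (0 in each). The cause was not tested. Between 641 and 2429 probe sets then had an unadjusted p under 0.05, with the lowest count without sham 2 and the highest without sham 1, against 1263 in the reported fit.

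The replicate numbers were not taken as pairs, since the labels do not state that they pair animals. Deviations from the group means correlated at 0.76 and 0.78 for numbers 1 and 2 and at -0.22 for number 3. Between TAC 2 and sham 3 the correlation was 0.71. Deviations in a group of 3 sum to 0, which ties these values to each other, so they cannot decide whether the numbers are pairs. With the replicate number as a block 0 probe sets passed and 3005 had an unadjusted p under 0.05. Agtr1a then had a difference of 0.52 (limma adjusted p = 0.421), Agtr2 -0.52 (0.355), Ace 0.31 (0.66), Npr2 0.32 (0.464) and Pde2a 1.29 (0.208).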

Other observations

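The balance of the 2 measured angiotensin receptor genes was taken as Agtr1a minus Agtr2 on each array, a comparison chosen after the values were seen. The level of this quantity carries the unknown brightness of the 2 probe sets. Whether that offset was the same on arrays with unlike Gapdh differences between transcript ends was not tested. It was -0.79, -2.43 and -2.06 on TAC 1 to 3 and -2.33, -3.22 and -2.83 on sham 1 to 3. Both TAC 1 and TAC 3 lay above all sham arrays, and TAC 2 lay below sham 1. The difference of 1.03 between the group means had an exact 2-sided permutation p of 0.2 (n = 3 each), where the smallest possible is 0.1. Within each group the replicate 1 array, whose Gapdh difference between transcript ends was the largest of its group, held the highest value. The part of RNA shortening or amplification in that value was not tested.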
